A study of Mus musculus with 13 samples.

Results

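The splicing factors described here are the genes whose symbols begin with Srsf and a digit, Hnrnp, Snrp, Sf3a or Sf3b, and 51 of the 13222 genes in the table meet that rule. They fall into 4 families by name: 10 SR proteins, 21 hnRNPs, 11 snRNP proteins and 9 SF3 subunits. RNA was measured in 13 libraries of 4T1-Thy1.1, a murine breast cancer cell line that expresses a Thy1.1 transgene; the labels do not say what drives it. The sources disagree on the medium, which the labels give as DMEM/F12+FBS and the study's methods as RPMI with FBS. The cultures received doxorubicin (DOX, an anthracycline that poisons topoisomerase II) at 200 ng/mL in 4 libraries, DOX at 200 ng/mL with recombinant mouse IL-17A at 25 ng/mL in 3, IL-17A alone at 25 ng/mL in 3, and neither agent in 3 controls. Exposure lasted 48 h in the treated groups, and the study asked how the cytokine alters the response to the drug.

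Splicing removes introns from pre-mRNA in the spliceosome, which is built from small nuclear RNAs held in rings of Sm proteins, the products of most Snrp genes. SF3a and SF3b are protein complexes of the U2 snRNP that hold it at the branch site of the intron. SR proteins bind exons and favour their inclusion, hnRNPs bind nascent RNA and often oppose inclusion, and many SR and hnRNP genes also control their own RNA through exons that trigger nonsense-mediated decay.

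Libraries were made with QuantSeq, which reads the 3′ end of each polyadenylated RNA, so the values give RNA levels per gene and no measure of splicing itself. Reads on listed genes numbered 6583757 to 16930600 in the controls, 6477647 to 11692332 with DOX, 4445592 to 16152120 with DOX and IL-17A, and 6598088 to 13771197 with IL-17A. Levels below are TMM-normalized values, reads scaled to each library's size after TMM, where 1 read is worth 0.0609 to 0.204 depending on the library. All 51 members passed the filter on low values, among 12319 tested genes. The p-values measure only the spread between libraries, since the labels do not say whether replicates were separate cultures. Being bulk RNA, the values cannot tell a change in RNA per cell from a change in the mix of cells.

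The epithelial character of the line was checked with 6 keratin and adhesion genes, all 6 listed, whose summed level was 1932 to 2248 in the controls, 1706 to 2050 with IL-17A, 934.6 to 1034 with DOX and 816 to 1033 with both agents. Krt7, a simple-epithelial keratin, was the most abundant of them in 12 of the 13 libraries. None of the 3 endothelial markers was listed (0 of 3), and 3 of 4 fibroblast markers summed to 19.6 to 60.2. DOX replicate 1 carried skeletal muscle markers at a summed 206 (6 of 6 listed; Myh4, a fast myosin, most abundant at 80.9) and red cell markers at 66.5 (3 of 5 listed; Hba-a2 at 43.4), against 3.76 to 30.5 and 0 to 14.4 in the other 12 libraries. The part of that signal in the results was not tested. With and without DOX replicate 1, 4 members passed the test in DOX against control (7.84%, against 22.1% of all tested genes with it and 17.6% without), and 3 of them were shared: Hnrnpa1, Sf3b4 and Snrpb.

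Control replicate 1 stood apart from the other 12 libraries. It held the highest of the 13 values for 18 members and the lowest for 15, which is 64.7% of the 51, against 48.0% of all tested genes. The next libraries were DOX+IL-17A replicate 2, at 27.5% of members, and IL-17A replicate 2, at 25.5%. Within the control group the median standard deviation of the members on the log2 scale was 0.54, against 0.45 for all tested genes, and 26 of 51 spanned more than 2-fold, against 51.1% of all genes. Between control replicates 3 and 5 alone the median was 0.16, against 0.19, and 1 of 51 spanned more than 2-fold, against 12.1% of all genes. The DOX libraries lay closer together, with a median of 0.14 against 0.27 for all tested genes, and 5 of 51 spanned more than 2-fold, against 32.1%. Control replicate 1 had 6583757 reads, the fewest of the 3 controls, and 1297 listed genes at 0, the most of the 13 libraries. DOX replicate 3 had 6477647 reads and 523 genes at 0. Control replicate 1 also had the highest fibroblast sum (60.2) and, after DOX replicate 1, the highest muscle (30.5) and red cell (14.4) sums. The counts of called members and genes of the other lists in DOX against control and with both agents against control are given with and without it.

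**Figure D1:**
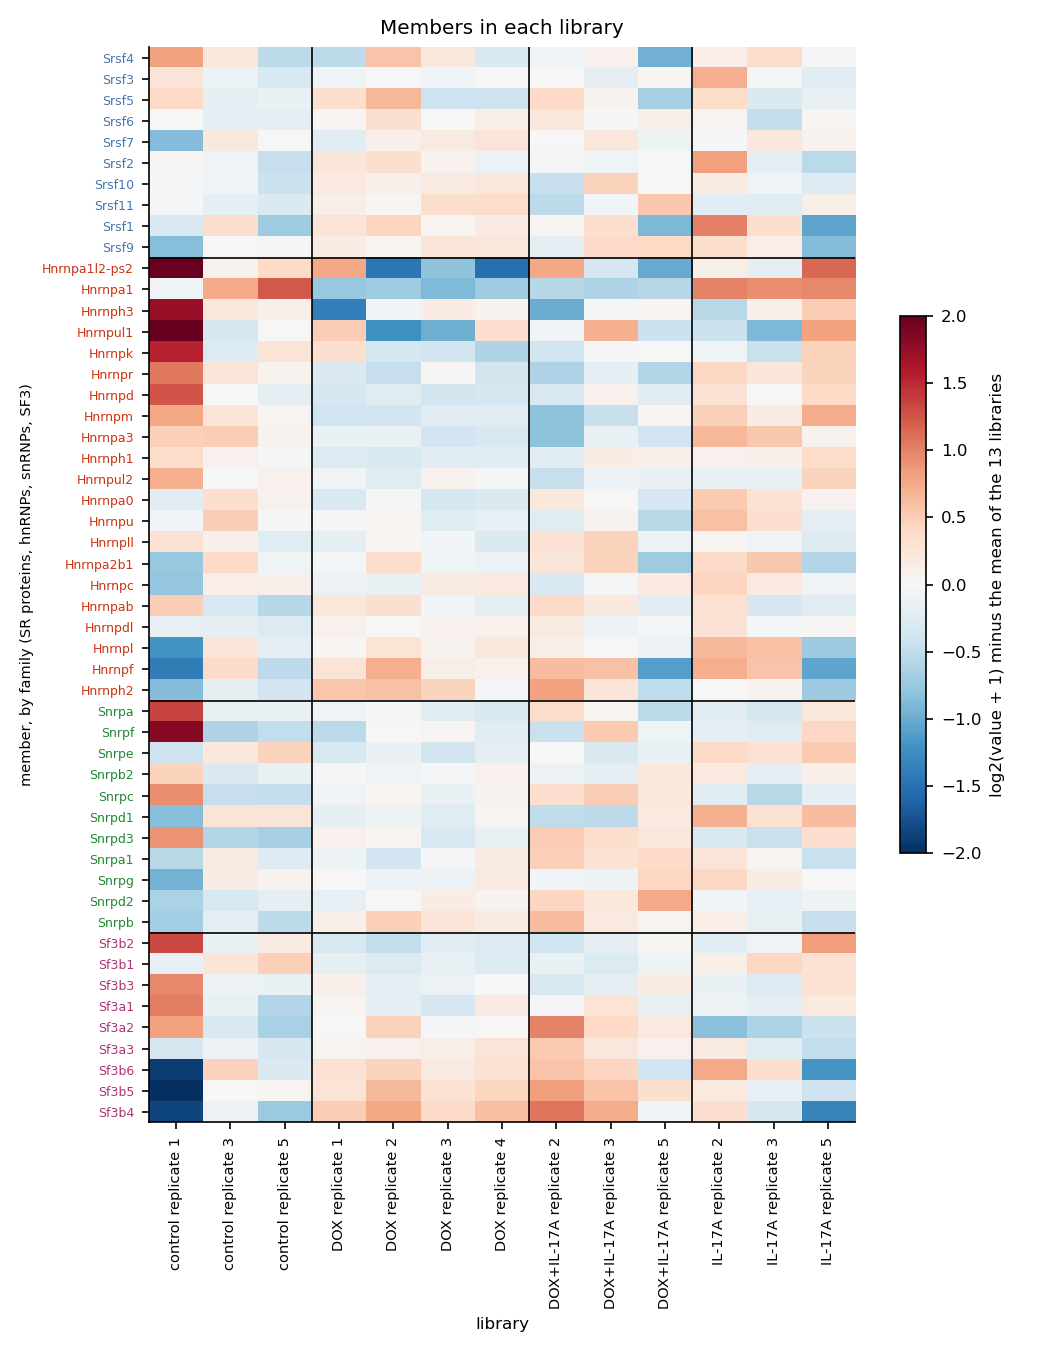
Each cell is the log2 value of 1 member (rows, by family) in 1 of the 13 libraries (columns, by group) minus that member's mean over the 13, from blue (lower) to red (higher). Control replicate 1 holds the highest value for 18 members and the lowest for 15.

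In DOX against control, which asks what the drug does alone, limma placed 4 of the 51 members past an adjusted p of 0.05, or 7.84%, against 22.1% of all 12319 tested genes. Of these 2 were higher (12.4% of all genes) and 2 lower (9.71% of all genes), and 2 were also past 2-fold (15.3% of all genes). At an unadjusted p under 0.05 there were 14 members, 27.5%, against 36.5% of all genes. The median log2 fold change was 0.01 for the members and 0.09 for all tested genes. These medians were 0.12 and 0.05 without control replicate 1, and −0.12 and 0.10 without control replicate 5. The 95% interval lay within 2-fold either way for 30 of the 51 members, 58.8%, against 30.9% of all genes. Without control replicate 1 the share of all genes was 21.7% and 4 members passed, of which Hnrnpa1 and Snrpb were also among the 4 called with it; Sf3b1, the largest SF3b subunit, and Snrpe, an Sm ring protein, chosen after their values were seen, were the others. Voom called 5 members (9.80%, against 20.1% of all genes), edgeR 7 (2 higher, 5 lower; 13.7% against 20.2%) and DESeq2 10 (3 higher, 7 lower; 19.6% against 26.0%). The count was 2 without DOX replicate 2 (16.5% of all genes), 11 without control replicate 3 (21.6% of members, 23.2% of all genes), and 7 without DOX+IL-17A replicate 2 (22.2%) or without IL-17A replicate 5 (23.4%), libraries that enter this comparison through the shared estimate of spread.

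With both agents against control, limma called 7 members, 13.7%, against 17.7% of all genes. There were 3 higher members (9.37% of all genes), 4 lower (8.34%) and 2 past 2-fold (12.9%), with 11 at an unadjusted p under 0.05, 21.6% against 32.5% of all genes. The members' median log2 fold change was 0.05 and that of all genes 0.04. These were 0.10 and 0.01 without control replicate 1. Without control replicate 1 the count was 9 (17.7% of members, 21.2% of all genes), without DOX+IL-17A replicate 2 it was 2 (11.2% of all genes), and without DOX+IL-17A replicate 3 it was 4 (11.2% of all genes). With only the groups compared it was 0 (4.88% of all genes). This comparison shares its controls with DOX against control, so the values below are set side by side and no agreement between the 2 is read from them.

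**Figure D2:**
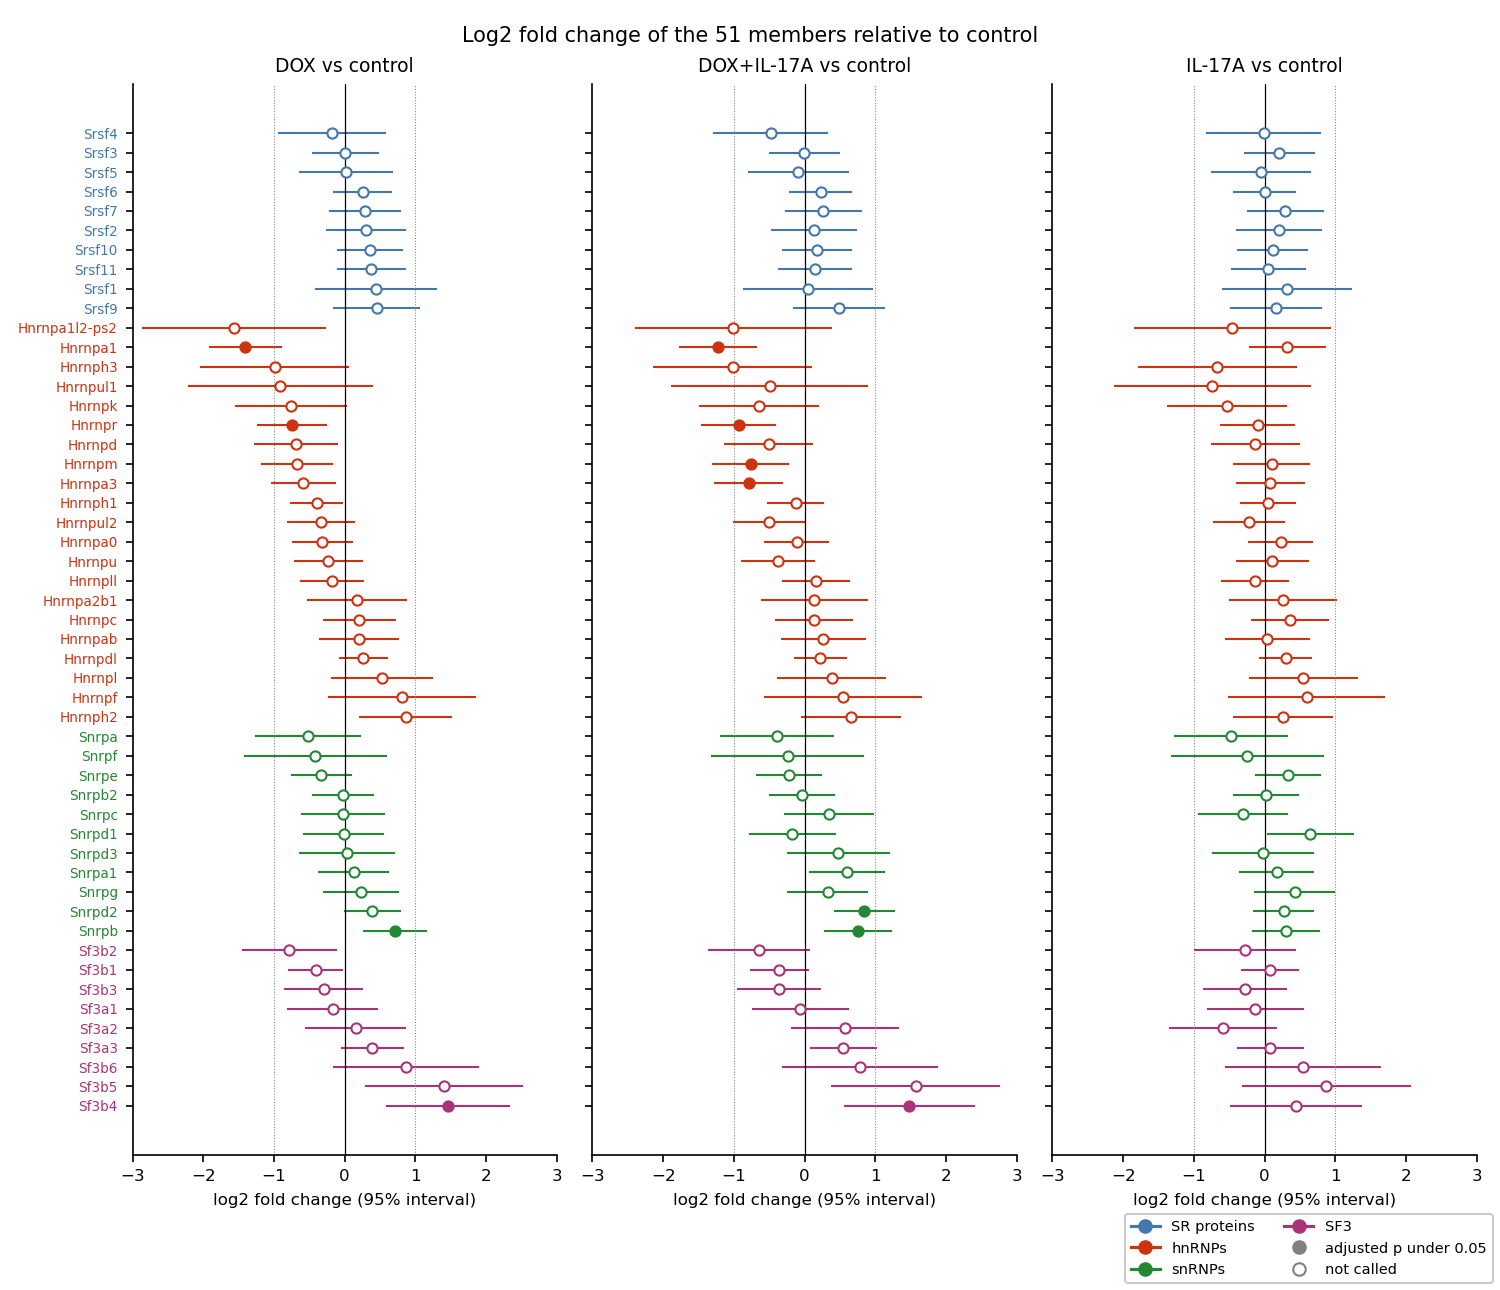
Log2 fold change of each of the 51 members (points) with its 95% interval (bars) in 3 comparisons with control, by family; filled points have an adjusted p under 0.05 and dotted lines mark 2-fold. Filled points number 4 for DOX, 7 for DOX with IL-17A and 0 for IL-17A.

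The hnRNPs held the member with the lowest adjusted p, Hnrnpa1, an abundant shuttling protein that represses exons. Its level was 576, 1024 and 1418 in the controls (replicates 1, 3 and 5), 356, 369, 328 and 369 with DOX (replicates 1 to 4), 409, 392 and 408 with both agents (replicates 2, 3 and 5), and 1204, 1155 and 1183 with IL-17A (replicates 2, 3 and 5). Every library that received DOX lay below every library that did not, and the lowest control was replicate 1. Group means were 1006 ± 421 (SD, n = 3), 356 ± 19.2 (n = 4), 403 ± 9.72 (n = 3) and 1181 ± 24.6 (n = 3), from 1999 to 16825 reads per library. By limma the log2 fold change was −1.41 with DOX (95% interval −1.90 to −0.91, adjusted p 0.000934) and −1.22 with both agents (−1.76 to −0.69, adjusted p 0.00452). These were −1.76 and −1.58 without control replicate 1. With only the groups compared, the adjusted p with both agents was 0.0680, the highest of 22 alternatives. Hnrnpa1 lies at chr15:103240432-103246692 on the + strand (mm10, GENCODE vM21).

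Hnrnpr, an RNA-binding protein related to Syncrip, measured 316, 182 and 159 in the controls and 123, 109, 153 and 117 with DOX. With both agents it measured 98.8, 131 and 101, and with IL-17A 202, 179 and 207. All 7 libraries with DOX were below the 6 without it, with DOX replicate 3 close to control replicate 5. The log2 fold change by limma was −0.74 with DOX (adjusted p 0.0293) and −0.93 with both agents (adjusted p 0.0168). Without control replicate 1, the highest of the 13 libraries, the first was −0.45 with an adjusted p of 0.101, and it also missed the threshold without DOX replicate 1 (0.0591), replicate 2 (0.0756) or replicate 4 (0.0724), by library size alone (0.0772) and with only the groups compared (0.0645). The second missed it without DOX+IL-17A replicate 2 (0.0593) and with only the groups compared (0.107), and without control replicate 1 it was −0.63. Hnrnpr lies at chr4:136310942-136359447 on the + strand.

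Hnrnpa3, a close relative of Hnrnpa1 and Hnrnpa2b1, and Hnrnpm, a regulator of alternative exons in epithelial and mesenchymal cells, lay on either side of the threshold, past it with both agents and short of it with DOX alone. Hnrnpa3 measured 723, 731 and 546 in the controls, 473, 475, 397 and 420.5 with DOX, 296, 472 and 397 with both agents, and 828, 759 and 547 with IL-17A. Hnrnpm measured 1196, 819 and 723 in the controls, 529, 534, 589 and 588 with DOX, 397, 507 and 726 with both agents, and 967, 780.2 and 1162 with IL-17A. For Hnrnpa3 the 7 libraries with DOX were below the 6 without, while Hnrnpm in DOX+IL-17A replicate 5 was level with control replicate 5. By limma Hnrnpa3 was at −0.58 with DOX (adjusted p 0.0568) and −0.79 with both agents (0.0246), and Hnrnpm at −0.67 (0.0505) and −0.76 (0.0471). The difference between the effects of DOX with and without IL-17A did not pass the test for either gene (Hnrnpa3 −0.29, adjusted p 0.901; Hnrnpm −0.19, adjusted p 0.938). With both agents, Hnrnpa3 missed the threshold without control replicate 3 (0.0627) or DOX+IL-17A replicate 2 (0.101), by library size alone (0.0616) and with only the groups compared (0.128). Hnrnpm in DOX against control was called by voom, edgeR and DESeq2, and under 9 of 22 alternatives in all (adjusted p 0.0172 to 0.148); with both agents it was called under 7 of 22 (0.0180 to 0.189), and not by edgeR. With both agents Hnrnpm passed it without control replicate 5, DOX+IL-17A replicate 5 or IL-17A replicate 5, and missed it without each of the other 10 libraries, with adjusted p-values from 0.0522 without IL-17A replicate 3 to 0.180 without DOX+IL-17A replicate 2. Hnrnpa3 lies at chr2:75659261-75669407 on the + strand and Hnrnpm at chr17:33646233-33686860 on the − strand.

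**Figure D3:**
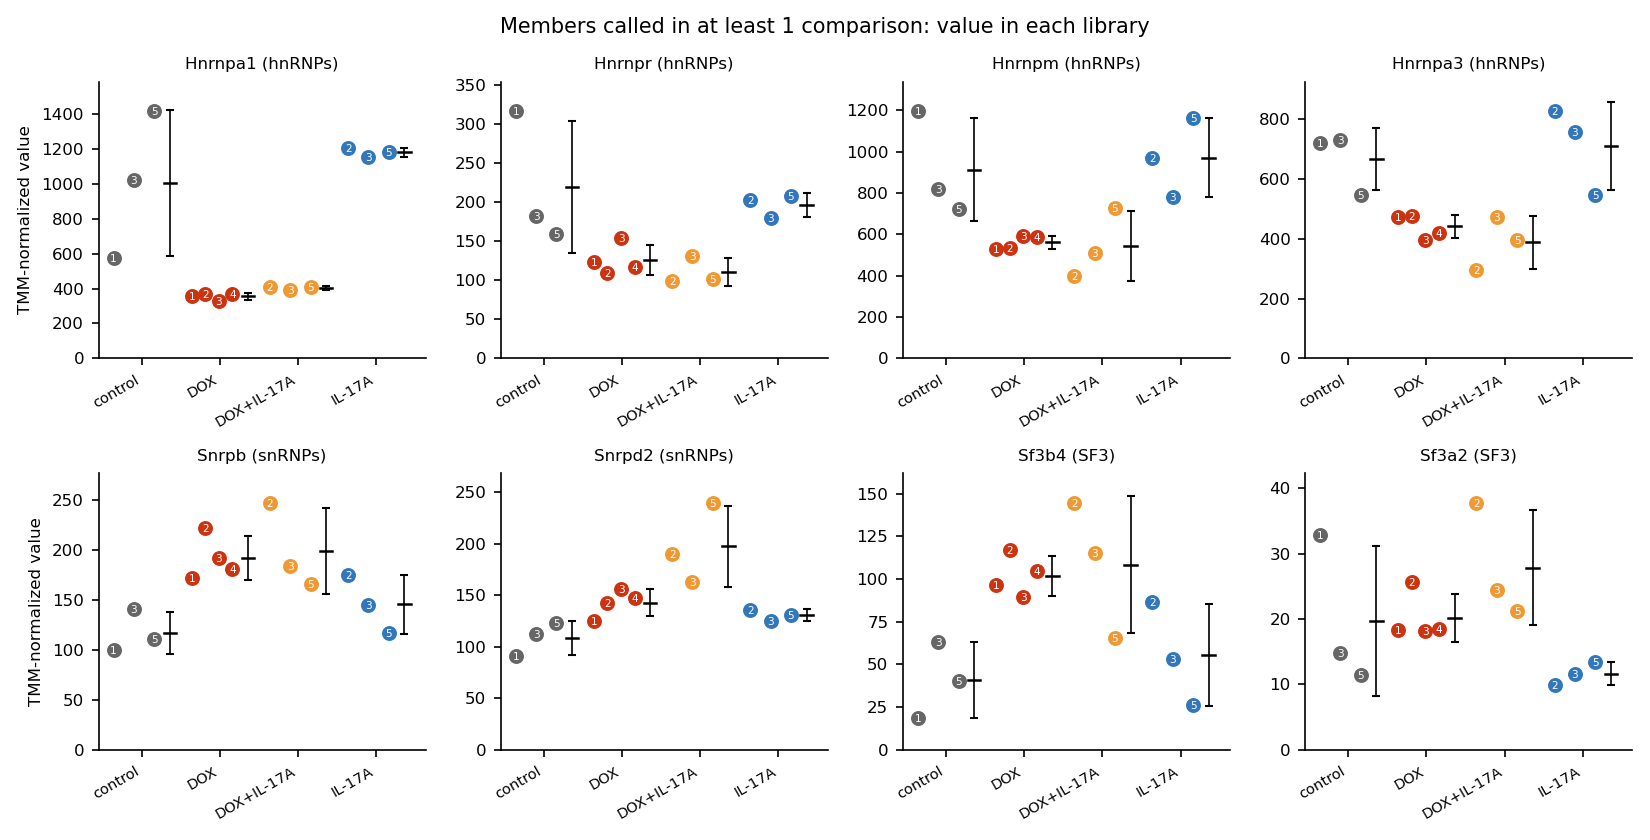
TMM-normalized value (vertical axis, from 0) of the 8 members called in at least 1 comparison, with 1 point per library labelled by its replicate number and the group mean ± SD beside it. Hnrnpa1 sits between 328 and 409 in the 7 libraries with DOX and between 576 and 1418 in the 6 without.

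The promoters of these 4 hnRNPs, each called lower in at least 1 comparison, are shown, from 250 bases before to 50 after the most upstream listed start (RefSeq, GRCm38.p6). Capitals mark CCAAT, or ATTGG where it lies on the other strand, and CACGTG, motifs chosen after the sequences were seen. The windows are chr15:103240147-103240446 (+) for Hnrnpa1, chr4:136310692-136310991 (+) for Hnrnpr, chr17:33685409-33685708 (−) for Hnrnpm and chr2:75659009-75659308 (+) for Hnrnpa3.
Hnrnpa1: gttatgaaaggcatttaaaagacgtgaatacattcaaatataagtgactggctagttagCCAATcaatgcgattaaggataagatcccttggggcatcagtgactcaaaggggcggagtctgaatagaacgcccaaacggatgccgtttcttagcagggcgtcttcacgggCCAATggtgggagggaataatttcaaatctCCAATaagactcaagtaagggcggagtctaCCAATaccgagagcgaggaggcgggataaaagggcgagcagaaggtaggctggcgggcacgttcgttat
Hnrnpr: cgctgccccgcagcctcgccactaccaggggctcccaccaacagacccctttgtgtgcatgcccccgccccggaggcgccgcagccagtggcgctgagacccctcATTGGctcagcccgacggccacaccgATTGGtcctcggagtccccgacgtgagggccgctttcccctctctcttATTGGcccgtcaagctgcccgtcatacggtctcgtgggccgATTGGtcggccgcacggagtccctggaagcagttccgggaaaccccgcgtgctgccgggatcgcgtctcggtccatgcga
Hnrnpm: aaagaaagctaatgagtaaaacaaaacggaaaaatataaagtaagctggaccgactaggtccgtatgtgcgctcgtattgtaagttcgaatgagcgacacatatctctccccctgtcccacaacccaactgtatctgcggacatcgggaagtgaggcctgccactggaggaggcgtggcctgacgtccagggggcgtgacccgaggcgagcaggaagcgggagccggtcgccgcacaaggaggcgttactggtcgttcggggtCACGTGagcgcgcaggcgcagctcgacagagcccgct
Hnrnpa3: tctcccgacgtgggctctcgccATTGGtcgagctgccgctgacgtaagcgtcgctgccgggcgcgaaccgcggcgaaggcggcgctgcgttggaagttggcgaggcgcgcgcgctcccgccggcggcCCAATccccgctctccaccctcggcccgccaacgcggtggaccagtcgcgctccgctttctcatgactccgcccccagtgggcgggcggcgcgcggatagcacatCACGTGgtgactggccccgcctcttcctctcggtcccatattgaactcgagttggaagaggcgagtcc
Hnrnpa1 holds 4 CCAAT matches, beginning 191, 79, 49 and 19 bases before the start, and Hnrnpr holds 4 on the other strand, at 145, 119, 71 and 30 bases before it. Hnrnpa3 holds 2, at 228 and 123 bases, and a CACGTG match 18 bases before the start. Hnrnpm holds no CCAAT in this window and has a CACGTG match 13 bases after the start; the window follows the RefSeq start, which lies inside the longer GENCODE gene, whose own 5′ end was not examined. These letters are a description of the sequence, and binding was not measured.

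Of the 51 members 45 had an entry among the promoters, with 59 windows, and Hnrnpll, Hnrnpul2, Sf3b4, Sf3b5, Snrpb and Snrpd1 had none. CCAAT on either strand was in 28 of the 59 windows, 47.5%, against 37.4% of all 32851 promoters. By family it was in 18 of 28 windows of hnRNPs, 4 of 13 of SR proteins, 3 of 10 of snRNP proteins and 3 of 8 of SF3 subunits. At least 4 matches were in 5 member windows, those of Hnrnpa1, Hnrnpc, Hnrnpl, Hnrnpr and Hnrnpul1, and in 1.06% of all promoters; Hnrnpc and Hnrnpl were named after their values were seen, and neither was called in DOX against control. CACGTG, which reads the same on both strands, was in 7 of the 59 windows, 11.9%, against 7.15% of all promoters. GGGCGG on either strand was in 42 windows, 71.2% against 35.7%, and TATAAA in 7, 11.9% against 13.6%. The median GC content was 61.0% for the member windows and 52.7% for all, and the observed over expected CpG ratio 0.952 and 0.384.

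For the 21 hnRNPs together the median was −0.33 on the log2 scale under DOX and −0.37 under both agents, with 14 and 13 members below 0. Of all 12319 tested genes, 5589 and 5868 were below 0. Limma called 2 of the 21 lower with DOX (9.52%, against 9.71% of all genes) and 4 with both agents (19.05%, against 8.34%). The hnRNP median ranged from −0.42 to −0.16 over the 22 alternatives for DOX and from −0.53 to −0.16 for both agents. Some alternatives change only the genes tested or the libraries of other groups, and those cannot move it. Hnrnph2, an exon-regulating hnRNP named after its values were seen, was the hnRNP nearest to a call higher, at 0.86 with DOX (adjusted p 0.0528 by limma). Its 4 DOX libraries were above the 3 controls. It was called higher with DOX by DESeq2, by library size alone, with only the groups compared, and without control replicate 3, DOX replicate 4, DOX+IL-17A replicate 2, DOX+IL-17A replicate 5 or IL-17A replicate 5, with adjusted p-values of 0.0305 to 0.0494, and with both agents without DOX+IL-17A replicate 5 (0.0467). The summed level of the family was 7022 ± 385 (SD, n = 3) in the controls, 5736 ± 237 (n = 4) with DOX, 5706 ± 469 (n = 3) with both agents and 7827 ± 917 (n = 3) with IL-17A. These sums include the abundant Hnrnpa1, Hnrnpm and Hnrnpa3, whose levels are given above, and were not computed without them. Hnrnpa1 was also the most abundant hnRNP in the controls and Hnrnpul1, a relative of Hnrnpu, the least, at 6.12 ± 6.72, with 13.9 of it in control replicate 1 against 1.89 and 2.59 in the others. Levels of different genes are compared per gene as 3′ reads, which scale with molecules and not with transcript length. Hnrnpa1l2-ps2, a pseudogene named after its values were seen, has at least 75 bases at 98% identity with Hnrnpa1 within its own last 500 bases. It was at −1.56 with DOX (adjusted p 0.0765 by limma), from 9 to 133 reads per library. Leaving out DOX replicate 1 or control replicate 3 brought the pseudogene past the threshold. Reads from the 2 loci were not told apart here.

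The snRNP family held 11 genes, of which Snrpb, the core Sm protein B, was called higher with DOX. Snrpb measured 99.98, 140.5 and 111 in the controls, 172, 222, 192 and 180.5 with DOX, 247, 184 and 166 with both agents, and 175, 145 and 116 with IL-17A. The 7 libraries with DOX lay above the 3 controls, whereas the IL-17A libraries overlapped both. By limma the log2 fold change was 0.71 with DOX (adjusted p 0.0219) and 0.75 with both agents (adjusted p 0.0275). The first missed the threshold without control replicate 5 (0.0681), DOX replicate 2 (0.0634) or DOX replicate 3 (0.0510), and the second without control replicate 5 (0.0793), DOX+IL-17A replicate 2 (0.111) or replicate 3 (0.0571), and with only the groups compared (0.127). They were 0.61 and 0.65 without control replicate 1. Snrpb lies at chr2:130171414-130179403 on the − strand.

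Snrpd2, another protein of the Sm ring, measured 90.7, 113 and 123 in the controls and 125, 142, 156 and 147 with DOX. It measured 189.6, 163 and 239.9 with both agents and 136, 125 and 131 with IL-17A. The libraries with both agents were above the other 10, and those with DOX alone or IL-17A alone were also above the 3 controls. By limma it was at 0.39 with DOX (95% interval 0.00 to 0.78, adjusted p 0.134) and 0.85 with both agents (0.43 to 1.26, adjusted p 0.00909). In both agents against DOX it had the lowest p of the 51 members, with a log2 fold change of 0.45 (0.06 to 0.84) and an adjusted p of 0.656. The call with both agents held without each of the 13 libraries in turn and was lost with only the groups compared (adjusted p 0.0908). Snrpd2 lies at chr7:19149722-19153542 on the + strand.

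Taking the 11 snRNP proteins as a set, their median stood at −0.01 (log2) for DOX and 0.33 for both agents. The first changed sign with scaling, to 0.16 by library size alone, and without control replicate 1, to 0.20; the second ranged from 0.11 to 0.51 over 22 alternatives. Snrpg, an Sm ring protein, was the most abundant in the controls at 397 ± 145, and Snrpf, another of the ring, the least at 27.0 ± 28.1. Control replicate 1 was the lowest control for Snrpg, at 230.2 against 495 and 466, and the highest for Snrpf, at 59.4 against 10.3 and 11.2. Their log2 fold changes with DOX, 0.23 and −0.42, were not called, and without control replicate 1 they were −0.13 and 0.37. The summed level of the family was 2001 ± 123 (SD, n = 3) in the controls, 1994 ± 93.5 (n = 4) with DOX, 2256 ± 169 (n = 3) with both agents and 2197 ± 196 (n = 3) with IL-17A. As a share of reads on listed genes, without TMM, the controls and the DOX libraries did not overlap (0.186% to 0.192% and 0.207% to 0.225%). That share was 0.232% to 0.248% with both agents and 0.191% to 0.212% with IL-17A. Without TMM the median of all genes was also above 0 in DOX against control, at 0.24, against 0.16 for the snRNP proteins.

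Among the 9 SF3 genes Sf3b4, an SF3b subunit that contacts pre-mRNA near the branch site, was called higher with DOX. Sf3b4 measured 18.4, 63.1 and 40.3 in the controls, 96.7, 117, 89.6 and 104 with DOX, 145, 115 and 65.2 with both agents, and 86.3, 53.4 and 26.4 with IL-17A. All 7 libraries with DOX were above the 3 controls, with DOX+IL-17A replicate 5 close to control replicate 3. These levels rest on 109 to 1201 reads per library. By limma the log2 fold change was 1.46 with DOX (95% interval 0.60 to 2.32, adjusted p 0.0182) and 1.48 with both agents (0.56 to 2.40, adjusted p 0.0278). Without control replicate 1, its lowest library, these were 0.99 (adjusted p 0.0619) and 1.01 (adjusted p 0.0720). The second also missed the threshold without control replicate 5 (0.0565), DOX+IL-17A replicate 2 (0.113) or replicate 3 (0.0886), and with only the groups compared (0.0866). A pseudogene, Gm7935, shares at least 75 bases at 98% identity with the last 500 bases of Sf3b4, which lies at chr3:96172332-96177564 on the + strand.

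Sf3a2, the SF3a subunit that tethers the complex to the U2 snRNP, measured 32.8, 14.8 and 11.4 in the controls, 18.3, 25.6, 18.2 and 18.5 with DOX, 37.8, 24.5 and 21.3 with both agents, and 9.91, 11.6 and 13.4 with IL-17A. The libraries with both agents lay above those with IL-17A alone, and the controls overlapped both groups. These values rest on 74 to 341 reads per library. In both agents against IL-17A, which asks what the drug does in the presence of the cytokine, Sf3a2 was at 1.16 (95% interval 0.41 to 1.91, adjusted p 0.0406). That call missed the threshold without DOX replicate 1 (0.0558), 3 (0.0557) or 4 (0.0581), DOX+IL-17A replicate 2 (0.153) or 3 (0.0818), or IL-17A replicate 2 (0.106), 3 (0.105) or 5 (0.0687), and with voom (0.0522). In DOX against control it was at 0.16 (adjusted p 0.767), and the difference between the IL-17A effects with and without DOX was 1.005 (−0.02 to 2.03, adjusted p 0.901). Sf3a2 lies at chr10:80798198-80804924 on the + strand.

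Sf3b2, an SF3b subunit that binds Sf3b4, was the most abundant SF3 gene, and Sf3a2 the least. Sf3b2 measured 2028, 744 and 912 in the controls, 650.1, 579, 693 and 671 with DOX, 619, 707 and 827 with both agents, and 691, 769.6 and 1448 with IL-17A. The 4 DOX libraries were below the 3 controls, while those with both agents and with IL-17A overlapped the controls, and control replicate 1 and IL-17A replicate 5 were high. The log2 fold change of −0.78 with DOX was not called by limma (adjusted p 0.0825); edgeR and DESeq2 called it, as did limma without control replicate 3 (−1.07), and without control replicate 1 it was −0.35. The median over the 9 genes was 0.16 with DOX and 0.55 with both agents. The first ranged from −0.14, without control replicate 5, to 0.32 over 22 alternatives and the second from 0.28 to 0.72. The family's summed level was 2069 ± 645 (SD, n = 3) in the controls, with 2809 in control replicate 1, and 1502 ± 35.4 (n = 4) with DOX, 1617 ± 9.45 (n = 3) with both agents and 1841 ± 348 (n = 3) with IL-17A.

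No SR protein passed the test in any of the 6 comparisons by limma (0 of 10), and 0 of 10 had an unadjusted p under 0.05 in each. Of all genes 22.1% were called and 36.5% were under that unadjusted p in DOX against control, 17.7% and 32.5% with both agents against control, 13.3% and 28.5% in both agents against IL-17A, and 0% to 0.455% and 3.085% to 6.35% in the other 3. Voom, edgeR and DESeq2 called 0 of the 10 in each as well. In DOX against control 9 of the 10 were above 0, with a median of 0.29 and a range of −0.18 to 0.45, and 8 of the 10 intervals lay within 2-fold either way, against 30.9% of all genes. The median ranged from 0.19 to 0.47 over 22 alternatives, and with both agents it was 0.14, ranging from 0.02 to 0.32. Srsf11, an SR-related protein and the most abundant, measured 466 to 562 in the controls, 578 to 733 with DOX, 395 to 828 with both agents and 483 to 619.7 with IL-17A. Srsf4, an SR protein that promotes exon inclusion and the least abundant, measured 20.5 to 53.1, 20.5 to 44.9, 14.8 to 31.9 and 29.1 to 38.7. Srsf11 was higher in each DOX library than in each control (log2 fold change 0.38, adjusted p 0.239), and the Srsf4 groups overlapped. The family's summed level was 1995 ± 208 (SD, n = 3) in the controls, 2398 ± 64.0 (n = 4) with DOX, 2199 ± 177 (n = 3) with both agents and 2275 ± 565 (n = 3) with IL-17A.

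Both agents against DOX, and IL-17A against control, ask what the cytokine adds with and without the drug. In the first, limma called 0 of 51 members, against 0.455% of all genes (56 genes), with 1 member at an unadjusted p under 0.05; voom and edgeR called 0 with 1 unadjusted, and DESeq2 0 with 2. The members' median was 0.02, and 40 of the 51 intervals lay within 2-fold either way, 78.4% against 55.2% of all genes. That median was −0.01 without DOX replicate 1 and 0.10 without DOX+IL-17A replicate 5. Snrpd2 is given above; Snrpa1, the U2 snRNP protein A′, came next at 0.47 (95% interval −0.01 to 0.96, adjusted p 0.815), from 45.8 to 67.0 with DOX and 73.8 to 84.0 with both agents, which do not overlap. In IL-17A against control limma also called 0 of 51, against 0.00812% of all genes (1 gene), with 1 member unadjusted; voom called 0 with 1, edgeR 0 with 0 and DESeq2 0 with 1. The median was 0.08, and 36 of the 51 intervals lay within 2-fold, 70.6% against 48.0% of all genes. That median was −0.04 without IL-17A replicate 2, −0.01 without control replicate 5 and 0.21 without IL-17A replicate 5.

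Snrpd1, an Sm ring protein, had the lowest p in IL-17A against control. It measured 87.6, 190.6 and 190.5 in the controls, 139, 148, 134 and 165 with DOX, 111, 110.5 and 181 with both agents, and 259, 196 and 244 with IL-17A. The IL-17A libraries were the 3 highest of the 13, with replicate 3 close to control replicate 3. The log2 fold change was 0.65 (95% interval 0.05 to 1.25), with a limma adjusted p of 0.959, and 0.28 without control replicate 1, the lowest of the controls. Hnrnpdl, an hnRNP D-like protein, came next at 0.30 (adjusted p 0.959), from 314 to 339 in the controls and 371 to 462 with IL-17A. For the difference between the IL-17A effects with and without DOX, limma called 0 of 51, against 0% of all genes, with 0 members unadjusted. Voom called 0 with 0, edgeR 0 with 1 and DESeq2 0 with 2. The lowest p-values belonged to Snrpd1, at −0.81 (−1.63 to 0.01; −0.44 without control replicate 1), and Sf3a2, both with an adjusted p of 0.901.

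In both agents against IL-17A limma called 5 members, against 13.3% of all genes: 1 higher (6.51% of all genes), Sf3a2, and 4 lower (6.75%), with 2 past 2-fold (9.84%) and 12 unadjusted (23.5% against 28.5% of all genes). The 4 lower were Hnrnpa1 at −1.55 (adjusted p 0.00163), Hnrnpa3 at −0.88 (0.0185), Hnrnpm at −0.86 (0.0331) and Hnrnpr at −0.83 (0.0339). The libraries with both agents were below the IL-17A libraries for each of these 4, which were picked by their calls in this same comparison. The share of all tested genes without overlap was not computed. By library size alone Hnrnpa3 (0.0548), Hnrnpm (0.0619) and Hnrnpr (0.0948) missed the threshold, and with only the groups compared Hnrnpm did (0.0587). Sf3b4 was at 1.03 (adjusted p 0.126), Snrpd1 at −0.82 (0.0665) and Snrpb at 0.45 (0.190). With replicate number as a block, since the same-numbered libraries of these groups deviated together, Sf3b4 (0.0492) and Snrpd1 (0.0373) passed the test as well, which made 7 members (13.7%, against 15.5% of all genes). The count was 12 without control replicate 1 (23.5% of members, 22.2% of all genes), which enters through the shared spread. It was 1, Hnrnpa1, without DOX+IL-17A replicate 2 (7.66% of all genes) or IL-17A replicate 2 (10.5%), 3 without DOX+IL-17A replicate 3 (7.61%), and 2 without IL-17A replicate 3 (6.13%) or replicate 5 (7.20%).

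Scaling by library size alone, without TMM, moved the median of all genes from 0.09 to 0.24 in DOX against control, from 0.04 to 0.20 with both agents, and from 0.02 to 0.22 in both agents against IL-17A. Genes called higher and lower then numbered 2104 and 830 in the first, 1666 and 744 in the second and 1417 and 538 in the third, where TMM gave 1528 and 1196, 1154 and 1028, and 802 and 831. Members called became 6 higher and 1 lower in the first, 6 and 2 in the second and 4 and 1 in the third, with Hnrnpa1 lower in each. Relative to those medians, the hnRNP median of −0.16 with DOX stayed below that of all genes and the SR median of 0.47 above it.

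The last 500 bases of the coding transcripts and of the pseudogene Hnrnpa1l2-ps2, where QuantSeq reads start, were compared with every other annotated gene. At least 75 bases at 98% identity, the length of a read, were found in 16 of the 51 members, overlapping genes included: 9 of 21 hnRNPs, 4 of 11 snRNP proteins, 2 of 10 SR proteins and 1 of 9 SF3 genes. Hnrnpa3 matched 19 other genes, 16 of them pseudogenes, while Hnrnpa1, Hnrnpr, Hnrnpm, Snrpb, Snrpd2 and Sf3a2 matched 0. For 5 members, Hnrnpab, Hnrnph3, Hnrnpu, Snrpf and Srsf2, another listed gene overlaps the last 1000 bases, as for Cherp and Pcbp2 among the other splicing genes named below. How the counting treated reads with more than 1 match, and which strand it counted, are not given in the sources used here.

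The other genes of the pathway were taken as 8 lists holding 159 listed genes, all 159 tested. In DOX against control 13 were called higher and 7 lower, 12.6% of the lists against 22.1% of all genes, with both agents 9 and 7 (10.1% against 17.7%), and in both agents against IL-17A 4 and 8 (7.55% against 13.3%). These became, without control replicate 1, 23 and 8 (19.5% against 21.7%), 21 and 8 (18.2% against 21.2%), and 17 and 12 (18.2% against 22.2%). With both agents the total of 16 was 8 without control replicate 5 (10.8% of all genes), 10 without DOX+IL-17A replicate 2 (11.2%) and 7 without DOX+IL-17A replicate 3 (11.2%); against IL-17A the total of 12 was 4 to 7 without DOX+IL-17A replicate 2 or 3 or any IL-17A library (6.13% to 10.5% of all genes), and 16, 6 higher and 10 lower, with the block (10.1%, against 15.5% of all genes). In both agents against DOX limma called 0 of 159, against 0.455% of all genes (2 unadjusted; voom 0 with 2, edgeR 0 with 2, DESeq2 0 with 1), and in IL-17A against control 0 of 159, against 0.00812% (5 unadjusted; voom 0 with 3, edgeR 0 with 3, DESeq2 0 with 5).

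The assembly and import list (17 genes), whose products load Sm rings on small nuclear RNAs, had 5 higher (12.4% of all genes) and 0 lower (9.71%) with DOX. That is 29.4% of it, against 22.1% of all genes, around a median of 0.43. Without control replicate 1 it had 6 higher and 0 lower (35.3%, against 21.7% of all genes) and a median of 0.59. With both agents against control it had 3 higher (17.6%, against 9.37% of all genes) and 0 lower. In both agents against IL-17A it had 1 higher (5.88%, against 6.51% of all genes) and 0 lower. The largest were Gemin6, a subunit of the SMN complex, at 2.23 (limma adjusted p 0.00581), and Wdr77, the partner of the methyltransferase Prmt5 that modifies Sm proteins, at 1.85 (0.00115). Gemin4 (1.23), Ddx20 (1.53) and Strap (0.98), also of the SMN complex, were named after their values were seen. Gemin4 was not called by voom, edgeR or DESeq2, nor with only the groups compared (0.0961), nor without control replicate 1 (0.172) or 5, any DOX library, DOX+IL-17A replicate 3, or IL-17A replicate 2 or 3 (0.0517 to 0.107). Ddx20 was not called by voom, nor without control replicate 5 (0.0821) or DOX replicate 2 (0.0502) or 3 (0.0519). Wdr77 measured 22.2, 43.8 and 26.6 in the controls, 105.1, 138, 105.0 and 94.7 with DOX, 119.8, 107 and 86.3 with both agents, and 82.7, 58.2 and 27.0 with IL-17A. Its 7 libraries with DOX were above all 6 without it, whereas the Gemin6 libraries with both agents and with DOX overlapped those with IL-17A alone.

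**Figure D4:**
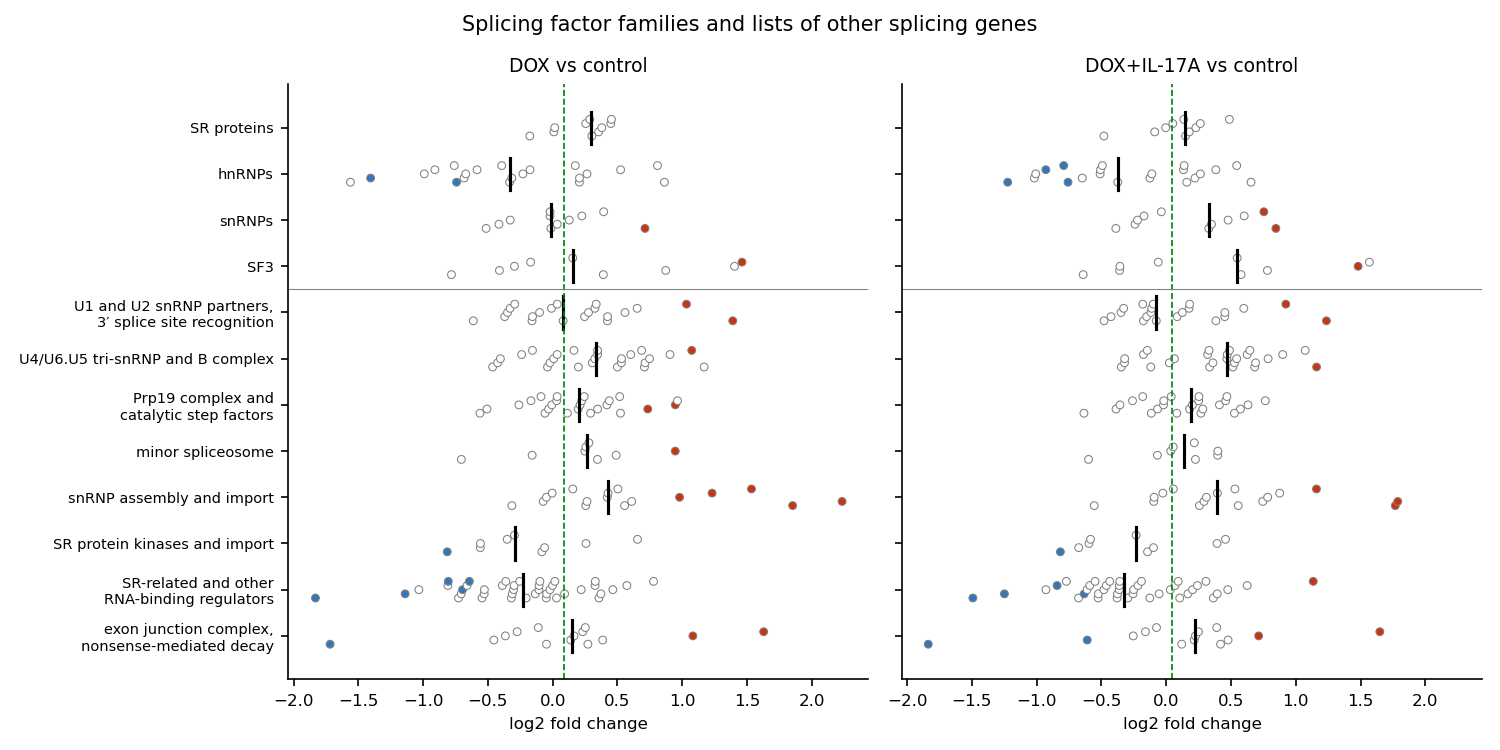
Log2 fold change of each gene (points) in the 4 families (top) and 8 lists of other splicing genes (bottom) with DOX and with DOX and IL-17A, against control; red is called higher, blue called lower, black bars are list medians and the dashed line is the median of all tested genes. In the assembly list 5 genes are called higher with DOX, and in the list of other regulators 5 lower.

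The list of 40 SR-related and other RNA-binding regulators had 0 higher (12.4% of all genes) and 5 lower (9.71%) with DOX. That is 12.5% of it, against 22.1% of all genes, around a median of −0.23. Without control replicate 1 it had 1 higher and 5 lower (15.0%, against 21.7% of all genes) and a median of −0.08. Pcbp2, a poly(C)-binding protein, was at −1.83 (limma adjusted p 0.000521) and Celf2, a regulator of alternative exons, at −1.14 (0.000451); Mbnl3 (−0.81), Matr3 (−0.70) and Ptbp3 (−0.64) were named after their values were seen. Ptbp3 kept its call without control replicate 1 or IL-17A replicate 5 and lost it without each of the other 11 libraries (0.0510 to 0.169), by library size alone (0.163) and with only the groups compared (0.0839). Celf2 measured 292, 295 and 288 in the controls, 145, 158, 108 and 123 with DOX, 114, 125 and 128 with both agents, and 274, 316 and 293 with IL-17A. The 7 libraries with DOX lay below the 6 without, with no overlap. With both agents this list had 4 lower (8.34% of all genes) and 1 higher (9.37%), which is 12.5% of it against 17.7% of all genes.

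Among 14 genes of the exon junction complex and nonsense-mediated decay, 2 were called higher and 1 lower with DOX (21.4%, against 22.1% of all genes), around a median of 0.15. Without control replicate 1 these were 3 and 1 (28.6%, against 21.7%), around a median of 0.27. Smg6, the endonuclease of that decay, was at −1.72 (adjusted p 0.000292 by limma). Smg6 measured 95.6, 73.6 and 70.5 in the controls, 23.3, 27.4, 21.0 and 22.2 with DOX, 14.9, 25.8 and 25.4 with both agents, and 44.8, 53.1 and 69.6 with IL-17A. The libraries with DOX lay below all others, and those with IL-17A alone below the controls. Smg8, a regulator of the kinase Smg1, was at 1.63 (adjusted p 0.0236; 0.0805 without control replicate 1, 0.0589 without control replicate 5, 0.0544 without DOX replicate 1; not called by voom) and Upf3b, which bridges the junction complex to the decay factors, at 1.08 (0.00357).

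In the other 5 lists 3.85% to 12.5% of genes passed with DOX, against 22.1% of all genes. Among 21 partners of the U1 and U2 snRNPs 2 were higher and 0 lower: Cherp, a U2-associated protein, at 1.39 (limma adjusted p 0.000682), and U2af1, which reads the end of the intron, at 1.03 (0.0191). Of 26 tri-snRNP genes 1 was higher, Prpf4 of the U4/U6 particle, at 1.07 (0.0337), and 0 lower. Of 24 in the Prp19 complex and catalytic steps 2 were higher and 0 lower: Prpf19, its ubiquitin ligase, at 0.95 (0.00348), and Ppil1, a prolyl isomerase, at 0.73 (0.0172). Of 8 minor-spliceosome genes 1 was higher, Snrnp48, at 0.95 (0.0111), and 0 lower. Of 9 SR-protein kinase and import genes 0 were higher and 1 was lower, Dyrk1a, a kinase that phosphorylates SR proteins, at −0.81 (0.00790). U2af1 missed the threshold without control replicate 1 (0.0623) or DOX replicate 4 (0.0563), and Ppil1 without control replicate 5 (0.0719) or DOX replicate 4 (0.0536). Prpf4 missed it without control replicate 3 (0.0990) or 5 (0.141), or DOX replicate 1 (0.0666), 3 (0.0713) or 4 (0.0862), and neither edgeR nor DESeq2 called it; DESeq2 called 0 of the tri-snRNP genes higher and 1 lower, Snrnp27, a tri-snRNP protein named after its values were seen. Without control replicate 1 the 5 lists had 2, 5, 4, 2 and 0 higher and 0, 0, 0, 0 and 2 lower, 9.52% to 25.0% of each, against 21.7% of all genes. Medians of the 5 lists were 0.08, 0.34, 0.20, 0.27 and −0.29, in that order, and 0.16, 0.43, 0.36, 0.31 and −0.06 without control replicate 1.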

How the data were processed

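RNA was measured in 13 libraries, read as single 75-base reads. The deposited table gives each gene's signal as made by the authors: they trimmed reads with Trimmomatic, aligned them to mm10 with STAR, counted them with featureCounts and scaled them by TMM, here called TMM-normalized values. Whole reads were recovered from each library's smallest step (all values within 0.01 of a whole number), which gave the depths. Of 13223 entries, 1 identical second entry was dropped; 17 genes carry date-like names, none of them a member. The main test was limma 3.58.1 with trend (R 4.3.3, edgeR 4.0.16) on log2(value + 1), all 13 libraries, 4 groups as the only term and 9 residual degrees of freedom, over 12319 genes kept by filterByExpr. P-values were adjusted by Benjamini-Hochberg over all tested genes and a call is an adjusted p under 0.05; 95% intervals are for the log2 fold change. Intervals and floors of reads cover counting error or the spread between libraries only.

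Alternatives were voom, edgeR's quasi-likelihood test, DESeq2 1.42.0, library size alone, every listed gene, genes averaging 10 reads or more, 0.1 as pseudocount, only the groups compared, replicate number as a block, a fold change above 2 as well, and leaving out each library. Figures used python 3.11.15, pandas 2.3.3 and matplotlib 3.10.9; sequence matches used blastn 2.17.0 and GENCODE vM21, and promoters came from RefSeq. The numbers were taken to pair libraries only between both agents and IL-17A alone, where all 3 same-numbered pairs had residuals correlated at over 0.1 (0.168, 0.203 and 0.355). The result of 1 marker list is not reported. Members and lists were chosen with earlier results of these data known. Genes named with values are, per family, up to 3 that rose and 3 that fell most among those called in DOX against control, the most and least abundant in the controls, members called in the comparisons of IL-17A or else the 2 of lowest p, members called and past 2-fold anywhere, up to 3 called with both agents and not with DOX, and per list up to 2 rising and 2 falling; other names are marked.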

Additional observations from a re-analysis of the deposited data

Results flagged for a closer look

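In the DOX group, the only group of 4, a library lay far from the other 3 for 5 of the 51 members, by a gap that is large for the group's whole range (above Dixon's 95% critical value, which chance meets in about 1 group in 20). DOX replicate 2 was high for Hnrnpa0, at 338 against 273 to 283 (0.855 of the range), for Hnrnpa2b1, at 384 against 276 to 291 (0.860), and for Sf3a2, at 25.6 against 18.2 to 18.5 (0.955). It was low for Hnrnpdl, at 376 against 400.2 to 403 (0.902). DOX replicate 1 was high for the pseudogene Hnrnpa1l2-ps2, at 8.21 against 0.894 to 2.10 (0.836), from 9 to 102 reads. The cause was not tested, and the share of all tested genes that this rule would flag was not computed. Groups of 3 were not examined in this way. Hnrnpa0 and Hnrnpa2b1 were named after their values were seen.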

How the results depend on the processing

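Named members and family medians were recomputed over up to 22 alternatives, which gave 1208 values. Of these 1095 kept their direction and side of the threshold (for medians, stayed within the spread between replicates). Another 74 were no longer past the threshold, 18 became so, 13 changed sign and 8 medians moved beyond that spread. Only values past the threshold in the main test could be among the 74, and the others had no call to lose. Members called in DOX against control, 4 in the main test, were 7 with edgeR (20.2% of all genes), 10 with DESeq2 (26.0%), 7 by library size alone (23.8%), 1 with replicate number as a block (14.5%), 2 past 2-fold, and 2 (without DOX replicate 2) to 11 (without control replicate 3) leaving out each library. With both agents against control, 7 became 0 by limma in only the groups compared (4.88% of all genes, with 8 members at an unadjusted p under 0.05). On all groups voom called 7 (16.6% of all genes), edgeR 6 (16.2%) and DESeq2 7 (22.0%). The limma count was 2 with the block (12.2% of all genes) and 2 past 2-fold. Leaving out each library it was 2 (without DOX+IL-17A replicate 2) to 9 (without control replicate 1). In both agents against IL-17A, 5 became 7 with DESeq2 (17.8% of all genes), 7 with the block (15.5%; Sf3b4 and Snrpd1 were gained and no other member's call changed), 2 past 2-fold, and 1 (without DOX+IL-17A replicate 2) to 12 (without control replicate 1). The other 3 comparisons gave 0 under every alternative run; only the groups compared has no value for the difference of IL-17A effects. Hnrnpa1 stayed past the threshold under all 22 alternatives for DOX and 21 of 22 for both agents against control, lost with only the groups compared (adjusted p 0.0680). The block also ended the calls in DOX against control and with both agents against control of Snrpb (0.0624 and 0.0713), Sf3b4 (0.0528 and 0.0636) and Hnrnpr (0.0665 and 0.0655), and those with both agents of Hnrnpa3 (0.0639) and Hnrnpm (0.140). Among named members, the values that changed sign had no call and were all for DOX against control. They were Sf3a2 (−0.00734 with DESeq2, −0.14 without control replicate 5 to 0.58 without control replicate 1), Snrpa1 (−0.0342 with the block, −0.0418 to 0.32) and Snrpd1 (0.16 by library size, 0.0395 with the block, −0.38 to 0.17). The others were Snrpf (−0.84 to 0.37), Snrpg (−0.13 to 0.42) and Srsf4 (−0.52 to 0.14). These ranges are those of leaving out each library, and the cause was not tested. Some family medians changed sign in other comparisons too, such as that of SR proteins in IL-17A against control (−0.08 to 0.26 over 22 alternatives). Libraries sharing a replicate number correlated at a mean of 0.151 over 13 pairs, from −0.175 to 0.491, and other pairs at −0.0368. At 1 read worth 0.0609 to 0.204, Hnrnpul1, with 5 to 82 reads per library, had the lowest count of the 51 members.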
